A study of Mus musculus with 12 samples.

Results

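Aggregates of bipotential mouse embryonic liver (BMEL) cells kept for 5 days were compared with the same cells in basal culture, in 2 independently isolated lines named 9A1 and 14B3. The comparison was defined by culture label alone and takes 8 of the 12 arrays of the series, 4 from basal culture and 4 from 5 days of aggregate culture. Both lines were derived from the liver of embryos at day 14 post coitum, from a cross of CBA/J with C57Bl/6J mice, and no genotype, transgene or added agent is named for either culture. Each line in each culture had 2 biological replicates, and total RNA was hybridised to Affymetrix mouse genome arrays. Each line is a single cell line, so differences between 9A1 and 14B3 describe these isolates and not a genotype.

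BMEL cells are immortal epithelial cells of the fetal liver that can take on features of hepatocytes or of bile duct cells. In basal culture they attach to the dish and divide. Floating aggregates remove that attachment and are used to induce liver functions. Hepatocytes make plasma proteins and carry out detoxification and fatty acid oxidation, cholangiocytes line the bile ducts, and enterocytes of the gut share with hepatocytes many genes of lipid transport and of detoxification and, beyond these, build a brush border of microvilli that carries digestive enzymes.

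Levels are log2 probe set values, normalised by the authors, and a difference of 1 is 2-fold. Array medians lay between 6.09 and 6.12. A log2 level of 5 is used here as a floor, since the values carry no detection calls and signal under it cannot be told from background, and 15500 genes with at least 2 of the 8 arrays at or above it were tested. Differences are day 5 minus basal culture, ± the standard error from limma (n = 4 arrays in each culture, line as a term), and a gene is said to have risen or fallen where the Benjamini-Hochberg adjusted p was under 0.05. Where 8 levels are listed, those of basal culture come first ("before"), in the order 9A1 replicate 1, 9A1 replicate 2, 14B3 replicate 1 and 14B3 replicate 2, and those of day 5 ("after") follow in the same order.

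The array labelled basal 9A1 replicate 1 went against its line label. On the other 7 arrays 24 genes separated the lines by at least 2 log2 units in both cultures, 11 higher in 9A1 and 13 higher in 14B3. On this array 23 of the 24 lay nearer to 14B3. The median gene stood at -2.15% of the way from 14B3 to 9A1, while the other 9A1 arrays stood between 97.7% and 102.9%. The genes and both ends of the scale were taken from those 7 arrays, so the positions of the other 9A1 arrays follow from that choice. The array labelled basal 9A1 replicate 1 had no part in it. Xist, the RNA that silences an X chromosome, was at 12.1 on this array, at 11.6 to 12.2 on the 14B3 arrays and at 6.30 to 6.69 on the other 9A1 arrays. Eif2s3y, a gene of the Y chromosome, was at 3.88 on it, at 3.46 to 4.06 on the 14B3 arrays and at 9.83 to 10.5 on the other 9A1 arrays. The interferon-inducible gene Ifi202b (4.65 against 11.3 to 11.9 on the other 9A1 arrays) and the growth factor adaptor gene Grb10 (5.04 against 8.42 to 10.2) showed the same. All 4 genes thus place the array with 14B3.

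**Figure D1:**
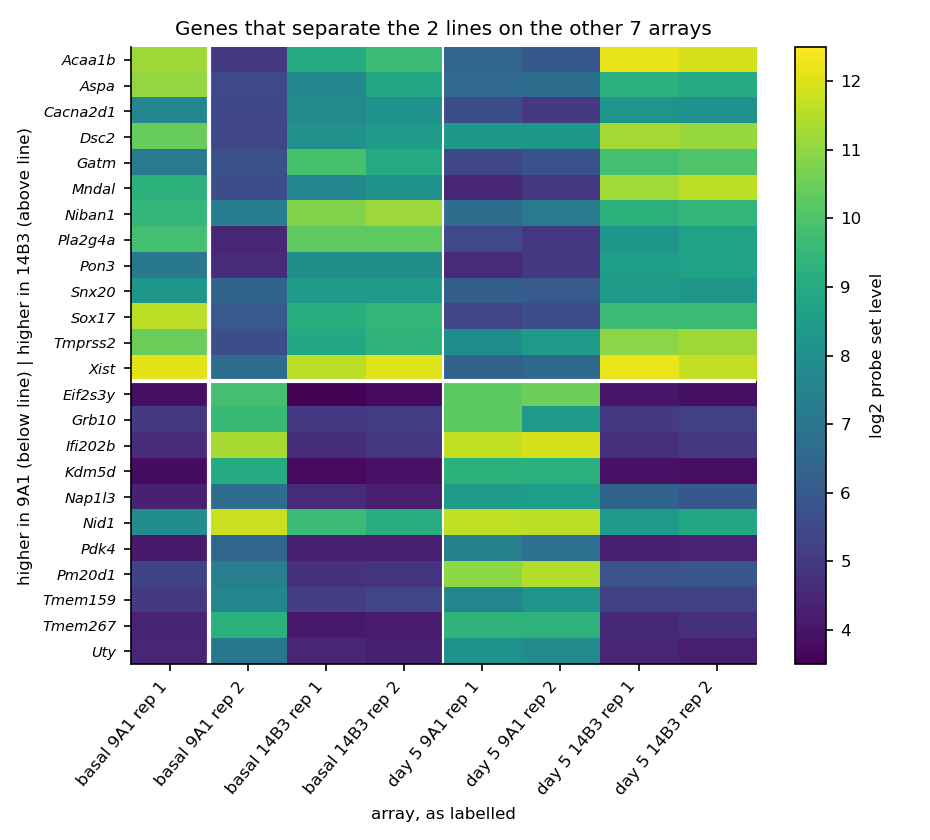
Log2 levels (colour) of the 24 genes that separate the lines on the other 7 arrays, one row per gene and one column per array, with genes higher in 14B3 above the white line and genes higher in 9A1 below it. The first column, labelled basal 9A1 replicate 1, resembles the 14B3 columns for 23 of the 24 genes.

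The same array also stood apart in culture. Over all tested genes it correlated at 0.952 with its replicate and at 0.976, the highest value, with the first day 5 array of 14B3. The leading principal component (79.2% of the variance) gave it a score of 2.87, the other basal arrays -88.2 to -78.1 and the day 5 arrays 53.9 to 75.8. The SD of the difference within replicate pairs was 0.904 for basal 9A1, against 0.254 for basal 14B3, 0.407 for day 5 9A1 and 0.197 for day 5 14B3. Results are therefore given with and without the array labelled basal 9A1 replicate 1.

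With all 8 arrays 3134 genes (20.2% of those tested) rose and 3509 (22.6%) fell, 6643 (42.9%) in all. Without the array labelled basal 9A1 replicate 1 the counts were 3851 (24.8%) and 4165 (26.9%), or 8016 (51.7%) in all. The 2 sets shared 6505 genes, 97.9% of the first and 81.2% of the second, and 0 of them changed direction. A difference of at least 16-fold was reached by 113 genes that rose and 34 that fell, and the median difference over all tested genes was 0.0085. All day 5 arrays lay above all basal arrays for 2914 genes (18.8%) and below them for 3199 (20.6%), and counts of members whose cultures do not overlap are to be read against these shares. In 14B3 alone limma called 3814 genes higher and 4235 lower. In 9A1 alone it called 0 of either kind, with 1393 and 1839 genes at an unadjusted p under 0.05. That fit includes the array labelled basal 9A1 replicate 1, and the SD within the basal pair was 0.904 in 9A1 against 0.254 in 14B3. The counts of the single lines are therefore not a comparison of their responses.

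The leading changes were ranked by the smaller of the differences with and without the array in question. Lypd8, a secreted protein of gut epithelium, stood at 13.81, 5.12, 4.83 and 4.88 before and at 14.24, 14.31, 14.39 and 14.39 after. It rose by 7.17 ± 1.84 (adjusted p = 0.0176) and by 9.38 without the array labelled basal 9A1 replicate 1, and its call was lost without any 1 of the 14B3 arrays. The carboxylesterase gene Ces2a rose by 7.0 ± 1.20, and the sulphate transporter gene Slc13a1 by 6.45 ± 1.20. F2r, the thrombin receptor, stood at 10.64, 12.84, 12.56 and 12.44 before and at 7.13, 5.01, 7.55 and 7.78 after, and fell by 5.25 ± 0.60 (adjusted p = 0.00084). Basal levels of Lypd8 and Slc13a1 on the other 3 arrays lay at or near the floor, so the size of such rises is limited by background.

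**Figure D2:**
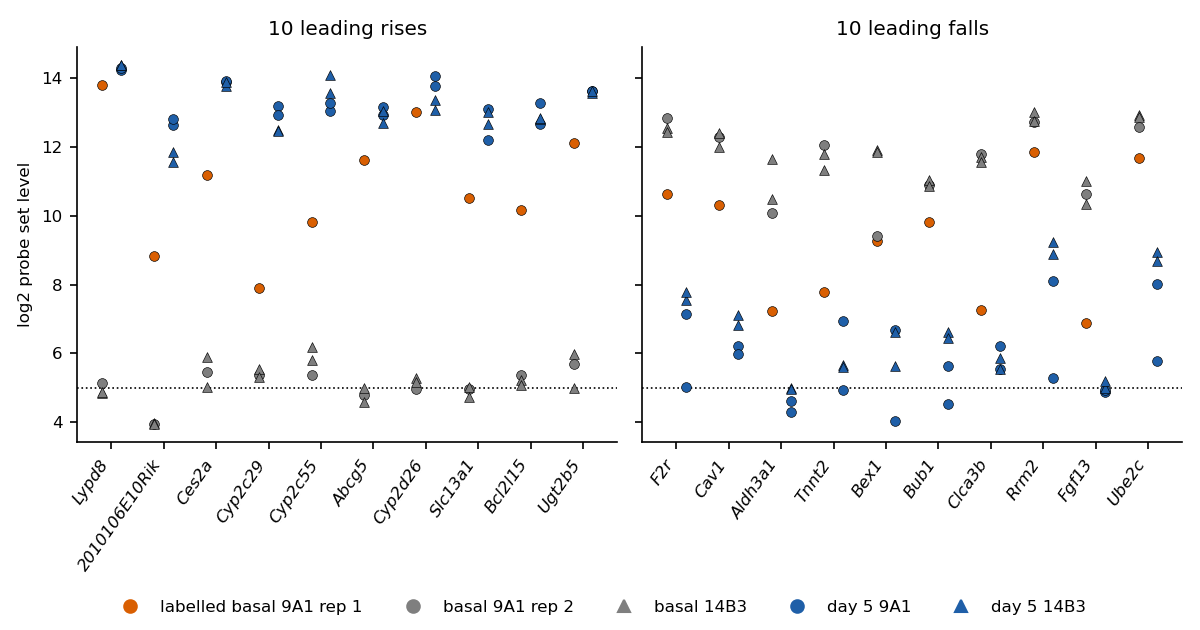
Log2 level of the 10 leading rises (left) and falls (right) on each array, with basal culture left and day 5 right of each gene's position, circles for 9A1, triangles for 14B3 and the dotted line at the floor of 5. The orange point, the array labelled basal 9A1 replicate 1, lies between the cultures for most of these genes, as for Ces2a at 11.2 between 5.02 to 5.88 and 13.8 to 13.9.

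Most brush border genes rose. Of the 34 tested, 29 rose (20.2% of all genes did) and 2 fell, with a median difference of 3.30, and without the array labelled basal 9A1 replicate 1 27 rose and 2 fell, with a median of 3.76. Fabp2, the intestinal fatty acid binding protein (chr3:122895072-122899506 in GRCm38), stood at 13.02, 6.83, 5.61 and 7.43 before and at 14.07, 14.09, 13.89 and 13.84 after. It rose by 5.75 ± 1.34 (53.8-fold, adjusted p = 0.012), and by 7.31 without that array. The groups did not overlap, although the first basal array came close to day 5.

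Digestive enzymes of the microvillus membrane were among the members that rose. Lactase (Lct) stood at 6.05, 4.99, 5.41 and 5.03 before and at 11.59, 11.32, 9.26 and 8.62 after, and rose by 4.83 ± 0.49 (adjusted p = 0.000574). Here the array labelled basal 9A1 replicate 1 lay close to the other basal arrays, and the difference without it was 4.82. The intestinal alkaline phosphatase Alpi rose by 5.58 ± 1.40, a call lost without any 1 of the 14B3 arrays, the peptidase meprin beta (Mep1b) by 5.36 ± 0.97, the aminopeptidase Anpep by 4.52 ± 0.56, trehalase (Treh) by 4.42 ± 0.42 and the maltase gene Mgam by 4.25 ± 0.51. All of these were higher on each of the 4 day 5 arrays than on each basal array.

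The structural proteins of the microvillus rose in most cases. Myo1a, the motor that ties the actin core to the membrane, rose by 5.40 ± 1.11, the intermicrovillar cadherins Cdhr2 and Cdhr5 by 3.92 ± 0.94 and 3.44 ± 0.84, and the actin bundler villin (Vil1) by 3.29 ± 0.74. Their scaffold Ush1c rose by 2.90 ± 0.44, and the bundler plastin 1 (Pls1) by 1.06 ± 0.26. Against the list, ezrin (Ezr), which links actin to the membrane in many epithelia, fell by 0.69 ± 0.08, from 12.23, 12.33, 12.62 and 12.51 to 11.73, 11.65, 11.74 and 11.81. Eps8, which caps actin filaments, fell by 0.57 ± 0.18, and 1 of these 2 falls was lost without the first basal or first day 5 array of 14B3 or either day 5 array of 9A1.

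Transporters of absorption were higher as well. The cholesterol importer Npc1l1 stood at 7.99, 6.29, 6.20 and 6.34 before and at 11.95, 12.11, 11.55 and 11.12 after, and rose by 4.98 ± 0.34 (adjusted p = 0.000267). Cubilin (Cubn) and its partner amnionless (Amn), which take up vitamin B12 with intrinsic factor, rose by 3.23 ± 0.26 and 3.21 ± 0.36. The fructose transporter Slc2a5 (0.18) and the amino acid transporter Slc6a19 (0.07) did not pass the test. The sodium-glucose transporter Slc5a1 (0.27) and the sodium-proton exchanger Slc9a3 (0.56) passed it with 8 arrays and missed it without the array labelled basal 9A1 replicate 1. The liver fatty acid binding protein Fabp1, made by both hepatocytes and enterocytes, was already at 14.06, 7.45, 10.01 and 11.70 in basal culture and reached 14.6 to 14.7 at day 5. It rose by 3.86 ± 1.27 (adjusted p = 0.044), and the call was kept in 2 of the 8 fits that leave out 1 array. Its day 5 levels were among the highest on these arrays, where probe signal can saturate.

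Regulators and secretory products of the gut rose for 8 of 22 members and fell for 0, with a median of 0.70, and 12 rose without the array labelled basal 9A1 replicate 1. Cdx2, the homeobox factor that sets intestinal identity, was present in every library at 10.08, 10.25, 9.92 and 10.03 in basal culture, and rose by 0.84 ± 0.17 (adjusted p = 0.00729) to 10.47, 11.20, 10.88 and 11.09. Its groups did not overlap and its difference was 0.84 without that array too. Hnf4g, a nuclear receptor of enterocytes, stood at 8.65, 5.35, 5.02 and 5.16 before and at 10.47, 11.18, 10.36 and 10.61 after, a rise of 4.61 ± 0.70. Guanylin (Guca2a), a peptide that regulates salt secretion, rose by 4.85 ± 0.76, the membrane mucin Muc13 by 4.07 ± 0.80 and Spink4, a goblet cell protein, by 3.98 ± 0.80. Other members did not pass the test. The goblet mucin Muc2 lay between 5.42 and 5.91 on all 8 arrays, Atoh1, which specifies secretory cells, between 5.41 and 5.83, and Cdx1, a relative of Cdx2, between 5.21 and 5.61.

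Short upstream windows of several members are shown because members of a list moved together. They come from RefSeq in the assembly GRCm38.p6, each the 120 bases before an annotated start, 5′ to 3′ along the gene, with the searched letters in capitals. For Fabp1 the capitals mark TTTATNG, a pattern bound by caudal type homeobox factors such as Cdx2, on either strand.
Fabp1, chr6:71199759-71199878, plus strand: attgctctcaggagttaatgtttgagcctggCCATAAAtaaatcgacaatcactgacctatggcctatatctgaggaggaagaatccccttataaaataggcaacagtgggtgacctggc
In windows of 300 bases, from 250 before to 50 after a start, TTTATNG on either strand was found in 17.1% of the 35 windows of brush border genes and in 10.9% of all 32851 windows. A match is letters only and does not show binding.

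Plasma proteins of the hepatocyte rose for 16 of 28 tested members and fell for 0, with a median of 1.68, and in 19 cases, with a median of 1.82, without the array labelled basal 9A1 replicate 1. Albumin (Alb, chr5:90460870-90476602) stood at 13.13, 6.86, 6.20 and 5.57 before and at 14.21, 11.88, 13.63 and 12.01 after. It rose by 4.99 ± 1.48 (adjusted p = 0.03) and by 6.63 without that array, whose basal level lay inside the day 5 range. The fibrinogen chain Fga stood at 7.91, 5.66, 4.43 and 4.12 before and at 11.92, 10.15, 9.70 and 8.23 after, and its groups did not overlap (4.47 ± 0.61). Hemopexin (Hpx), which binds free heme, rose by 3.95 ± 0.66 and the clotting factor gene F10 by 3.59 ± 0.55. The count of plasma proteins that rose was 9 without the first basal or first day 5 array of 14B3 and 10 without its second basal array, and Alb was not called without any 1 of the 14B3 arrays, basal 9A1 replicate 2 and day 5 9A1 replicate 1.

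Several plasma proteins did not pass. The fetal albumin homolog Afp stood at 12.48, 8.97, 11.75 and 11.44 before and at 13.69, 11.73, 12.25 and 12.06 after, a difference of 1.27 ± 0.80 (adjusted p = 0.248), and its difference was 3.74 in 9A1 over basal replicate 2 and 0.56 in 14B3. Antithrombin (Serpinc1, 0.16) and haptoglobin (Hp, 0.06) were the members with the smallest differences beside Apom (0.12).

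Metabolic enzymes of the liver were uneven. Among 20 tested, 8 rose and 0 fell, with a median of 0.41, and 9 rose without the array labelled basal 9A1 replicate 1. Cps1, which makes carbamoyl phosphate for the urea cycle, stood at 8.08, 5.03, 5.08 and 5.08 before and at 11.88, 11.26, 10.77 and 10.84 after (5.37 ± 0.60, adjusted p = 0.000778). Otc, the next enzyme, stood at 5.66, 4.75, 4.71 and 4.90 before and at 9.21, 9.24, 9.02 and 9.10 after (4.14 ± 0.19), and both are also made by enterocytes. Glucose-6-phosphatase (G6pc), which releases glucose, rose by 4.33 ± 0.60. Among the enzymes of mature hepatocytes that did not pass were Cyp7a1, the first enzyme of bile acid synthesis (0.10), Tat, which degrades tyrosine (0.13), and arginase (Arg1, -0.87). The sign of Arg1 rests on the array labelled basal 9A1 replicate 1. Arg1 stood at 9.22 on it and at 4.40 to 7.20 on the other basal arrays, and differed by 0.30 without it.

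Fgb, another fibrinogen chain, stood at 7.96, 8.28, 5.31 and 5.77 before and at 11.59, 9.50, 9.43 and 7.87 after, and rose by 2.77 ± 0.52 with groups that overlapped.

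Liver transcription factors rose for 13 of 22 members and fell for 2, with a median of 0.76 (15 and 3 without the array labelled basal 9A1 replicate 1). Nuclear receptors led. Nr5a2, a receptor that drives bile acid and steroid genes, stood at 6.69, 5.05, 4.99 and 5.14 before and at 9.29, 9.39, 8.51 and 7.86 after, and rose by 3.29 ± 0.34 (adjusted p = 0.000632). Ppara, which senses fatty acids, rose by 3.13 ± 0.55, the xenobiotic receptor Nr1i2 by 2.69 ± 0.48, the bile acid receptor Nr1h4 by 2.16 ± 0.39 and the constitutive androstane receptor Nr1i3 by 2.03 ± 0.31. Hnf4a, expressed throughout hepatocyte development, was high in both cultures and rose by 0.94 ± 0.19, from 11.99, 11.48, 10.98 and 11.48 to 12.29, 12.43, 12.43 and 12.54. The pioneer factors Foxa1 and Foxa2 moved the other way. Foxa1 stood at 10.90, 10.25, 10.40 and 10.80 before and at 8.24, 7.26, 9.29 and 9.17 after (-2.10 ± 0.36), and Foxa2 fell by 1.65 ± 0.29, with no overlap between the cultures for either gene.

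Detoxification genes were read in 3 phases, oxidation, conjugation and export. Of 32 cytochromes P450 and their electron donors, 20 rose and 2 fell, with a median of 0.97 (22 and 3 without the array labelled basal 9A1 replicate 1). Cyp2c29 stood at 7.90, 5.38, 5.55 and 5.31 before and at 13.21, 12.95, 12.51 and 12.47 after, and rose by 6.75 ± 0.50 (108-fold, adjusted p = 0.000296). Cyp3a11, the main drug-metabolising form of adult liver, stood at 5.30, 4.48, 4.63 and 4.60 before and at 12.03, 9.78, 7.35 and 7.75 after (4.48 ± 0.73), so its day 5 level varied more between arrays than that of Cyp2c29. Cyp1b1, a form found mainly outside the liver, fell by 2.02 ± 0.64, and the orphan Cyp20a1 fell by 0.84. The fall of Cyp1b1 passed the test with 8 arrays and without either the array labelled basal 9A1 replicate 1 or day 5 9A1 replicate 1, and missed it without any 1 of the others. Probe sets of these families can hybridise with close relatives, so a value may belong in part to a paralog.

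Conjugating enzymes, which add glucuronate, sulphate or glutathione, rose for 25 of 40 members and fell for 1, with a median of 1.10, and in 32 cases without the array labelled basal 9A1 replicate 1. The glucuronosyltransferase Ugt2b5 stood at 12.12, 5.67, 4.98 and 5.98 before and at 13.63, 13.62, 13.56 and 13.64 after (6.43 ± 1.37, adjusted p = 0.00841). The sulphotransferases Sult1b1 and Sult1d1 rose by 5.83 ± 1.35 and 5.36 ± 1.26, and Papss2, which makes their sulphate donor, by 3.16 ± 0.87, a call kept in 3 of the 8 fits that leave out 1 array. The glutathione transferases Gstm3 and Gsta3 rose by 5.25 ± 1.05 and 4.53 ± 0.86. Gstm5 was the member that fell, by 0.43 ± 0.14, and its call was lost without any 1 of basal 9A1 replicate 2, day 5 9A1 replicate 2 and the 14B3 arrays.

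ABC transporters, the export phase, rose for 12 of 26 members and fell for 3 (13 and 4 without the array labelled basal 9A1 replicate 1). With 8 arrays the share of rises was over the 20.2% of all genes, and the share of falls was under their 22.6%. The sterol exporters Abcg5 and Abcg8, which work as a pair, rose by 6.48 ± 1.41 and 4.14 ± 0.58. Abcg5 stood at 11.62, 4.77, 4.58 and 4.97 before and at 12.94, 13.18, 13.04 and 12.70 after. Abcc2, the canalicular exporter of conjugates, rose by 5.67 ± 0.95. The multidrug exporter genes Abcb1a and Abcb1b moved in opposite directions. Abcb1a stood at 12.15, 9.74, 9.48 and 10.06 before and at 13.83, 13.91, 13.96 and 14.06 after (3.58 ± 0.53), while Abcb1b stood at 6.20, 9.52, 9.38 and 9.02 before and at 7.52, 4.98, 5.77 and 5.79 after (-2.52 ± 0.85, adjusted p = 0.0484). The fall of Abcb1b was -3.36 (adjusted p = 0.00128) without the array labelled basal 9A1 replicate 1, and was not called without any 1 of basal 9A1 replicate 2, day 5 9A1 replicate 2 and the 14B3 arrays. Only 1 of the 3 falls remained called without basal 9A1 replicate 2 or any 1 of the 14B3 arrays. The bile salt exporter Abcb11 (0.27) and the phospholipid exporter Abcb4 (-0.01) did not pass.

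**Figure D3:**
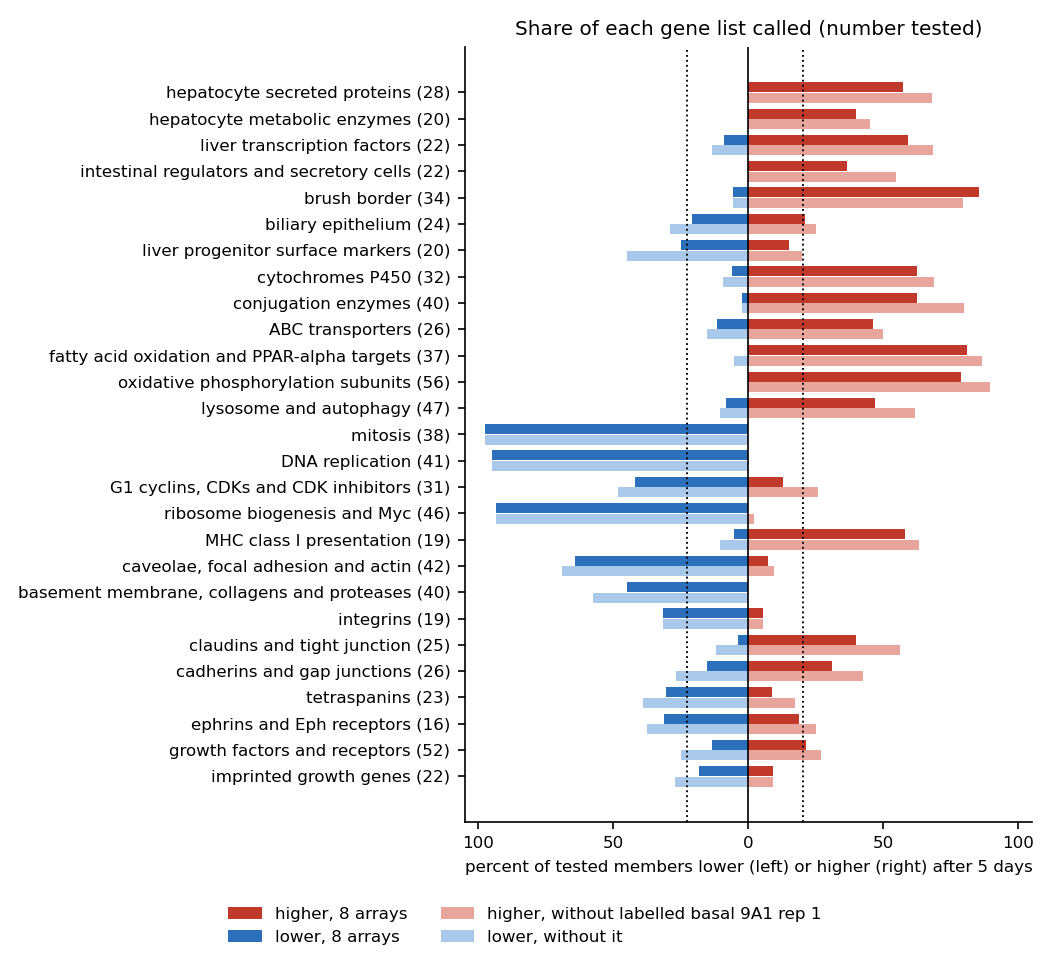
Percent of the tested members of 27 gene lists that rose (right) or fell (left) after 5 days, in dark bars for all 8 arrays and pale bars without the array labelled basal 9A1 replicate 1, with the number tested in brackets and dotted lines at the shares over all genes, 20.2% and 22.6%. Mitosis, DNA replication and ribosome biogenesis extend furthest to the left, and brush border, fatty acid oxidation and oxidative phosphorylation furthest to the right.

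Fatty acid oxidation rose nearly as a whole. Of 37 genes of this pathway and of known targets of the receptor PPAR alpha, 30 rose and 0 fell, with a median of 1.16, and 32 rose and 2 fell without the array labelled basal 9A1 replicate 1. One gene fell without basal 9A1 replicate 2 or day 5 9A1 replicate 2. Cd36, which takes up fatty acids, stood at 7.34, 4.09, 4.46 and 4.73 before and at 10.40, 10.97, 8.72 and 8.39 after (4.47 ± 0.65, adjusted p = 0.00201). The peroxisomal enzyme Ehhadh rose by 4.02 ± 0.56 and Pex11a, which divides peroxisomes, by 2.56 ± 0.30. In mitochondria Cpt2, which completes fatty acid import, rose by 1.78 ± 0.19, Hadha, a subunit of the trifunctional protein, by 1.35 ± 0.18 and Acadm, the medium chain dehydrogenase, by 0.96 ± 0.22. Cpt1a, the gate of mitochondrial import, differed by 0.46 ± 0.19 and passed the test without the array labelled basal 9A1 replicate 1 and not with it. The PPAR targets Pdk4, Plin2 and Angptl4 (0.90, 0.42 and -0.50) did not pass.

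Subunits of oxidative phosphorylation moved together by small amounts. Of 56 tested, 44 rose and 0 fell, with a median of 0.43, and 50 rose, with a median of 0.51, without the array labelled basal 9A1 replicate 1. Ndufb10, of complex I, stood at 11.51, 10.83, 10.67 and 10.50 before and at 11.57, 11.89, 11.76 and 11.77 after (0.87 ± 0.20). The largest difference in this list was that gene's, and 12 members were not called. The list mean was 12.25 on the array labelled basal 9A1 replicate 1, 11.92 to 11.93 on the other 3 basal arrays and 12.36 to 12.46 at day 5. The number that rose depended on single arrays. It was 22 without the first basal or second day 5 array of 14B3, 23 without its first day 5 array, 24 without its second basal array and 28 without the second day 5 array of 9A1.

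Lysosomal genes rose for 22 of 47 members and fell for 4, with a median of 0.45 (29 and 5 without the array labelled basal 9A1 replicate 1). The sialidase Neu1 stood at 10.02, 8.69, 8.18 and 8.58 before and at 10.36, 10.17, 10.65 and 11.01 after (1.68 ± 0.40), the acid lipase Lipa rose by 1.56 ± 0.30 and the protective protein cathepsin A (Ctsa) by 1.51 ± 0.30. Of the autophagy genes in the same list, Sqstm1 (0.16), Becn1 (0.19) and Ulk1 (0.07) did not pass the test, and Atg9b fell by 1.30 ± 0.35, a call lost without basal 9A1 replicate 2 or basal 14B3 replicate 2. The falls numbered 1 without basal 9A1 replicate 2 or basal 14B3 replicate 2 and 2 without any 1 of the day 5 arrays.

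Antigen presentation by MHC class I rose for 11 of 19 members and fell for 1, with a median of 1.16 (12 and 2 without the array labelled basal 9A1 replicate 1). Of all genes 20.2% rose and 22.6% fell with 8 arrays. Members that did not pass included Tap1 (0.10), Canx (0.03) and H2-D1 (1.65), and H2-D1 rose by 2.34 without the array labelled basal 9A1 replicate 1. Tapasin (Tapbp), which loads peptides, stood at 10.71, 9.30, 8.65 and 8.83 before and at 11.29, 11.64, 11.55 and 11.72 after (2.18 ± 0.39). Beta-2 microglobulin (B2m), the shared light chain, stood at 13.05, 12.60, 12.22 and 12.28 before and at 13.80, 13.83, 13.77 and 13.83 after (1.27 ± 0.14). The immunoproteasome subunits Psmb10, Psmb8 and Psmb9 rose by 1.88 ± 0.25, 1.23 ± 0.25 and 1.16 ± 0.21 and the peptide trimmer Erap1 by 1.39 ± 0.15. The heavy chain gene H2-K1 rose by 1.51 ± 0.44, a call lost without basal 9A1 replicate 2 or the first day 5 array of either line. Pdia3, a chaperone of the endoplasmic reticulum, fell by 0.31 ± 0.09, and without any 1 of basal 9A1 replicate 2, basal 14B3 replicate 2, day 5 9A1 replicate 2 and the day 5 14B3 arrays 0 members fell. The letters of the interferon-stimulated response element were found in 16.7% of the 18 windows of this list and in 3.44% of all windows. The 3 windows of the list with a match belong to B2m, Erap1 and Psme1.

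Genes of cell division fell almost without exception. Of 38 mitosis genes 37 fell (22.6% of all genes did) and 0 rose, with a median of -3.47, and without the array labelled basal 9A1 replicate 1 37 fell, with a median of -3.70. Mki67, the proliferation marker Ki-67, stood at 10.51, 11.91, 11.19 and 11.19 before and at 7.38, 5.60, 8.03 and 7.19 after, and fell by 4.15 ± 0.50 (adjusted p = 0.00103). Ube2c, which primes mitotic proteins for degradation, stood at 11.69, 12.57, 12.94 and 12.87 before and at 8.01, 5.76, 8.95 and 8.68 after (-4.67 ± 0.51). The mitotic kinase Cdk1 fell by 3.46 ± 0.30 and Cdc20, which activates the complex that ends mitosis, by 3.0 ± 0.24. None of these groups overlapped, and day 5 9A1 replicate 2 had the lowest level of Mki67, Ube2c and Cdk1. The exception was securin (Pttg1), at 10.90, 12.63, 11.81 and 11.39 before and at 11.61, 11.31, 12.04 and 12.14 after (0.09 ± 0.37, adjusted p = 0.871), which rose where basal 9A1 replicate 2 was left out.

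Promoters of these genes often hold a CCAAT box and a cell cycle homology region. The capitals mark CCAAT and TTTGAA, the core letters of that region, on either strand.
Ube2c, chr2:164769809-164769928, plus strand: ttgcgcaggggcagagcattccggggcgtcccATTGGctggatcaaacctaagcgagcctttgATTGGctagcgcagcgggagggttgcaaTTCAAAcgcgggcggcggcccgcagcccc
Cdk1, chr10:69352913-69353032, minus strand: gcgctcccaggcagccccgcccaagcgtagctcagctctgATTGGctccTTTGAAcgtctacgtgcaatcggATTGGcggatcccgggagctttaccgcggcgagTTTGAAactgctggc
Cdc20, chr4:118437344-118437463, minus strand: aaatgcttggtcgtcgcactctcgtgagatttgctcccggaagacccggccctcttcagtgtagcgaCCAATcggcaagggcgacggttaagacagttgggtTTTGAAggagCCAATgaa
CCAAT was found in 72.7% of the 33 windows of mitosis genes, which cover 31 members, and in 37.4% of all windows. TTTGAA was found in 72.7% and 17.9%. The windows with each motif belong to 22 of the 31 members.

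DNA replication genes fell in 39 of 41 cases with a median of -2.61, and in the same number without the array labelled basal 9A1 replicate 1. Rrm2, the regulated subunit of ribonucleotide reductase, stood at 11.87, 12.74, 13.03 and 12.77 before and at 8.11, 5.27, 9.23 and 8.88 after (-4.73 ± 0.65). The helicase subunit Mcm5 fell by 4.28 ± 0.42, the helicase loader Cdc6 by 3.94 ± 0.17 and Gins1, part of the active helicase, by 3.91 ± 0.25. Another helicase subunit, Mcm6, stood at 11.40, 11.83, 12.01 and 11.85 before and at 10.40, 9.59, 10.04 and 9.91 after (-1.78 ± 0.20). The sliding clamp Pcna was one of the 2 members not called, at 13.12, 13.25, 13.44 and 13.28 before and at 13.20, 13.38, 13.24 and 13.08 after (-0.05 ± 0.09), and Orc1 (-0.02) was the other.

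E2F factors bind promoters of replication genes. The capitals below mark TTTGGCGC, a match to an E2F site, in the window of Mcm6.
Mcm6, chr1:128359706-128359825, minus strand: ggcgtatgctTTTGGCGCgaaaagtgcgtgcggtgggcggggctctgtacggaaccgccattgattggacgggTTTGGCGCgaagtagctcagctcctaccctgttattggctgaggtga
TTTGGCGC was found in 17.1% of the 41 windows of replication genes and in 0.514% of all windows, and TTTCCCGC, another E2F site, in 14.6% and 1.07%, on either strand. The matches belong to 7 and 6 of the 33 members with a window. Among windows of tested genes alone the shares were higher than among all windows, 0.846% for TTTGGCGC and 1.71% for TTTCCCGC.

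Regulators of entry into the cycle were mixed. Of 31 G1 cyclins, kinases, E2F factors and inhibitors, 4 rose and 13 fell (8 and 15 without the array labelled basal 9A1 replicate 1). With 8 arrays the share of rises was under the 20.2% of all genes, and the share of falls was over their 22.6%. E2f7, itself a target of the cycle, fell by 3.53 ± 0.32, cyclin E2 (Ccne2) by 3.28 ± 0.23 and cyclin D1 (Ccnd1) by 3.19 ± 0.64. Rbl2, the pocket protein of resting cells, stood at 8.83, 8.80, 7.97 and 8.04 before and at 9.62, 9.65, 9.35 and 9.35 after (1.08 ± 0.13). The kinase inhibitors Cdkn1a (0.30), Cdkn1b (-0.26), Cdkn2a (0.73) and Cdkn2b (1.45) did not pass the test, while the inhibitor Cdkn2c fell by 1.74 ± 0.26 (adjusted p = 0.00203). On this list the array labelled basal 9A1 replicate 1 had a mean of 9.49, within the 9.48 to 9.67 of the other basal arrays.

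Genes of ribosome biogenesis were lower. Of 46 genes of this process and of the Myc family, 43 fell and 0 rose, with a median of -1.68, and 43 fell and 1 rose, with a median of -1.83, without the array labelled basal 9A1 replicate 1. Nop56, of the box C/D ribonucleoprotein, stood at 10.57, 11.34, 12.03 and 11.94 before and at 8.62, 8.27, 8.97 and 8.93 after (-2.77 ± 0.20, adjusted p = 0.000283). The pseudouridine synthase Dkc1 fell by 2.74 ± 0.22, the methyltransferase Fbl by 1.88 ± 0.19 and the RNA polymerase I subunit Polr1a by 1.42. Myc, which activates this programme, stood at 10.71, 11.05, 11.66 and 10.84 before and at 8.55, 7.92, 9.46 and 9.38 after (-2.24 ± 0.27). Arrays measure these transcripts relative to the rest, and a fall of ribosomal RNA or of total RNA per cell was not measured.

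Caveolae, focal adhesion and actin genes fell in 27 of 42 cases and rose in 3, with a median of -0.71 (29 and 4 without the array labelled basal 9A1 replicate 1). Caveolin 1 (Cav1, chr6:17306335-17341328), the coat protein of caveolae, stood at 10.32, 12.30, 12.40 and 11.99 before and at 6.21, 5.97, 6.82 and 7.12 after. It fell by 5.22 ± 0.39 (37.3-fold, adjusted p = 0.000303). Its partners Cav2, Cavin2, Cavin1 and Cavin3 changed by -3.12, -2.98, -1.37 and -1.35, so every tested coat gene of the list was lower. Non-muscle myosin 10 (Myh10) fell by 3.54 ± 0.44, calponin 3 (Cnn3) by 3.81 ± 0.47 and filamin A (Flna) by 2.97. Actn4, an actinin of epithelia, rose by 0.62 ± 0.10, while Actn1 fell by 1.38. The cytoskeletal actins differed little, with Actb at 0.01 and Actg1 lower by 0.29. The 3 rises became 1 without day 5 14B3 replicate 1. GGAATG, the letters bound by TEAD factors, was in 33.3% of the 45 windows of this list and in 14.7% of all windows.

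Basement membrane, collagen and protease genes fell in 18 of 40 cases and rose in 0, with a median of -0.65, and 23 fell without the array labelled basal 9A1 replicate 1. Fibulin 2 (Fbln2) stood at 8.30, 12.00, 11.94 and 11.58 before and at 6.60, 6.22, 6.37 and 6.91 after (-4.43 ± 0.75). The laminin chain Lamb1 stood at 10.996, 11.25, 11.21 and 11.35 before and at 7.46, 6.38, 8.25 and 7.68 after (-3.76 ± 0.30), and on this gene the array labelled basal 9A1 replicate 1 was near the other basal arrays. The collagenase Mmp13 fell by 2.74 ± 0.43 and its inhibitor Timp1 by 2.45 ± 0.49. One member rose without basal 9A1 replicate 2 or day 5 9A1 replicate 2.

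Integrins are receptors for matrix. Of 19 subunits 6 fell (31.6%, against 22.6% of all genes) and 1 rose. The counts were the same without the array labelled basal 9A1 replicate 1, where 26.9% of all genes fell. The members were not the same, since Itgb3 was called lower only with that array and Itgb1 only without it. The epithelial subunit Itgb6 stood at 8.16, 8.12, 8.13 and 7.35 before and at 5.36, 5.23, 6.51 and 6.69 after (-2.0 ± 0.36), the collagen receptor chain Itga2 fell by 1.59 ± 0.38, the fibronectin receptor chain Itga5 by 0.83 ± 0.14 and the laminin receptor chain Itga6 by 0.60 ± 0.11. Itgb5, a vitronectin receptor chain, rose by 0.52 ± 0.11.

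Tight junction genes rose for 10 of 25 members and fell for 1 (14 and 3 without the array labelled basal 9A1 replicate 1), while 6 rose without the first day 5 array of either line and 4 without the second day 5 array of 14B3. Of all genes 20.2% rose and 22.6% fell with 8 arrays. The 3 falls without the array labelled basal 9A1 replicate 1 (Cldn12, Tjp1 and Cgnl1) do not include Cldn6, the 1 fall with 8 arrays. Claudin 23 (Cldn23) stood at 8.0, 4.65, 5.23 and 5.21 before and at 10.59, 9.61, 9.72 and 9.31 after (4.04 ± 0.67, adjusted p = 0.00311). Claudin 6 (Cldn6), a claudin of embryonic epithelia, stood at 7.77, 5.44, 11.39 and 10.60 before and at 5.77, 6.02, 5.94 and 5.88 after, so that 14B3 lost it and 9A1 replicate 2 had little of it. Its mean fall of 2.89 ± 0.94 (adjusted p = 0.0414) was not called without the array labelled basal 9A1 replicate 1 (adjusted p = 0.0522) or any 1 of the 14B3 arrays.

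Among 26 cadherin, desmosome and gap junction genes 8 rose and 4 fell (11 and 7 without the array labelled basal 9A1 replicate 1). By comparison 20.2% of all genes rose and 22.6% fell. Connexins moved in opposite directions. Gja1, the connexin of many dividing cells, stood at 10.66, 12.67, 12.82 and 12.84 before and at 8.63, 9.61, 8.83 and 9.06 after (-3.22 ± 0.49), whereas Gjb1, the hepatocyte connexin, stood at 11.67, 7.45, 6.98 and 8.24 before and at 11.95, 12.01, 11.98 and 12.08 after (3.42 ± 0.90). The call of Gjb1 was lost without any 1 of the 14B3 arrays. Liver-intestine cadherin (Cdh17) rose by 1.22 ± 0.22 from levels already between 11.6 and 12.6, desmoplakin (Dsp) by 1.03 ± 0.21 and E-cadherin (Cdh1) by 0.40 ± 0.12, a call kept in 3 of the 8 fits that leave out 1 array. The rises in this list numbered 2 without the first basal or first day 5 array of 14B3, 3 without its second day 5 array, 4 without its second basal array and 5 without the first day 5 array of 9A1.

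Of the tetraspanins, 2 of 23 rose and 7 fell (4 and 9 without the array labelled basal 9A1 replicate 1). The shares over all genes were 20.2% and 22.6%. Cd9 stood at 11.53, 12.53, 12.31 and 12.35 before and at 9.63, 8.50, 9.63 and 9.64 after (-2.83 ± 0.29), Tspan2 fell by 1.89 ± 0.18, and Upk1b, a urothelial plaque protein, fell by 3.28 ± 0.81, a call lost without basal 14B3 replicate 1. Cd82 rose by 1.59 ± 0.25.

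Ephrins and their receptors rose for 3 of 16 members (18.8%, near the 20.2% of all genes) and fell for 5 (31.2%, against 22.6%) (4 and 6 without the array labelled basal 9A1 replicate 1). The receptor Epha4 stood at 8.39, 9.89, 9.52 and 9.13 before and at 5.99, 5.88, 6.89 and 6.84 after (-2.83 ± 0.33), while its ligand Efna1 stood at 10.05, 5.99, 6.69 and 7.49 before and at 10.66, 10.64, 10.50 and 9.88 after (2.86 ± 0.79). Efna1 was not called without any 1 of the day 5 arrays or of the basal 14B3 arrays. The rises of the list numbered 1 without day 5 9A1 replicate 2 or any 1 of the 14B3 arrays, and the falls 3 without basal 9A1 replicate 2, basal 14B3 replicate 2 or day 5 14B3 replicate 1.

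Growth factors and their receptors were split, with 11 of 52 higher and 7 lower (14 and 13 without the array labelled basal 9A1 replicate 1). With 8 arrays the share of rises was near the 20.2% of all genes, and the share of falls was under their 22.6%. Erbb3, a neuregulin receptor, stood at 10.34, 6.29, 6.48 and 6.58 before and at 11.45, 11.42, 11.38 and 11.07 after (3.91 ± 0.81). The growth hormone receptor Ghr stood at 11.01, 10.11, 9.54 and 9.39 before and at 12.51, 12.18, 12.24 and 12.07 after (2.24 ± 0.26), and the insulin receptor Insr rose by 1.33 ± 0.20. Igf1r, the related receptor for insulin-like growth factor, stood at 7.92, 10.24, 9.19 and 9.35 before and at 8.04, 7.92, 7.37 and 7.33 after. Its fall of 1.51 ± 0.46 was larger without the array labelled basal 9A1 replicate 1 (-2.05, adjusted p = 8.03e-06) and was not called without any other single array. The receptors Met (-0.17) and Egfr (0.07), for hepatocyte and epidermal growth factor, did not pass with 8 arrays. The count of rises was 7 without basal 14B3 replicate 1, and 4 genes fell without any 1 of the 14B3 arrays.

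Surface markers of liver progenitors rose for 3 of 20 members and fell for 5 (4 and 9 without the array labelled basal 9A1 replicate 1). These counts are to be read against the 20.2% of all genes that rose and the 22.6% that fell. Epcam (chr17:87635979-87651127) stood at 12.63, 6.86, 6.86 and 7.48 before and at 12.88, 13.24, 13.14 and 12.90 after (4.58 ± 1.18, adjusted p = 0.018), a call lost without any 1 of the 14B3 arrays. Cd24a stood at 12.70, 13.13, 12.64 and 12.79 before and at 11.74, 9.77, 10.75 and 10.68 after (-2.08 ± 0.38), and Cd44, the hyaluronan receptor, fell by 2.17 ± 0.50. Prom1, Dlk1 and Alcam (-0.01, -0.01 and -0.17) did not pass. The value of Prom1 rests on the array labelled basal 9A1 replicate 1. Prom1 stood at 7.31 on it and at 4.49 to 5.12 on the other basal arrays, and differed by 0.60 without it, also without a call. The rises numbered 1 without the first basal array of 14B3 or either of its day 5 arrays.

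Biliary genes changed at about the shares of all genes (20.2% higher and 22.6% lower), with 5 of 24 higher (20.8%) and 5 lower (20.8%) and a median of 0.05 (6 and 7 without the array labelled basal 9A1 replicate 1). The chloride channel Cftr stood at 7.79, 5.01, 4.88 and 4.74 before and at 9.14, 10.17, 8.66 and 7.49 after (3.26 ± 0.60). Keratin 19 (Krt19) stayed between 13.6 and 14.0 on all 8 arrays, and keratin 7 (Krt7) fell by 1.72 ± 0.48, a call lost without any 1 of basal 9A1 replicate 2, day 5 9A1 replicate 2 and the 14B3 arrays. Sox9, a duct and progenitor factor, differed by -0.83 ± 0.57 and was called lower without the array labelled basal 9A1 replicate 1 (-1.40, adjusted p = 0.0125). Both counts moved with single arrays. Rises numbered 3 without the first basal array of 14B3 or the second basal or day 5 array of 9A1, and 2 without the first day 5 array of 14B3. Falls numbered 2 without the first basal array of 14B3 or the second day 5 array of 9A1, and 1 without the second basal array of either line or either day 5 array of 14B3.

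Imprinted growth genes changed in few cases, 2 of 22 higher and 4 lower (2 and 6 without the array labelled basal 9A1 replicate 1). Over all genes 20.2% were higher and 22.6% lower. Necdin (Ndn) stood at 8.38, 10.79, 9.63 and 9.34 before and at 8.24, 7.79, 7.25 and 7.06 after (-1.95 ± 0.49), a call lost without the first basal or second day 5 array of 14B3. The organic cation transporter Slc22a18 rose by 1.79 ± 0.34. One of the 2 rises was lost without the first basal array of 14B3 or the first day 5 array of either line.

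Markers of other cells that liver tissue holds were checked. In bulk RNA, fewer cells of a type and less RNA per cell cannot be told apart. Among 13 tested blood cell markers 2 rose and 1 fell, while 20.2% of all genes rose and 22.6% fell. Their list means were 6.31 to 6.39 in basal culture and 6.35 to 6.76 at day 5. Csf1r, the receptor for macrophage colony-stimulating factor, stood at 8.05, 9.17, 7.65 and 8.32 before and at 11.99, 12.02, 9.53 and 9.84 after (2.55 ± 0.41). The pan-leukocyte gene Ptprc lay between 4.54 and 4.70 on all 8 arrays, and Cd68 fell by 1.19 ± 0.23. None of the 11 tested endothelial and 13 tested stellate cell and fibroblast markers was called with 8 arrays by limma, with 2 and 0 at an unadjusted p under 0.05 (1 endothelial marker rose without the array labelled basal 9A1 replicate 1 and 1 stellate or fibroblast marker without day 5 9A1 replicate 1). The endothelial genes Tek and Pecam1 lay at 4.10 to 4.42 and at 4.63 to 5.14, and the fibroblast collagen Col3a1 at 4.01 to 4.54. Other markers lay above the floor without a call, among them Eng, of endothelium, at 7.97 to 8.27, Kdr at 5.76 to 6.29, Des, of stellate cells, at 6.78 to 7.33, Dcn at 6.13 to 6.64 and Pdgfrb at 5.92 to 6.36. Cdh5, of endothelium, stood at 7.65 on the array labelled basal 9A1 replicate 1 and at 4.64 to 5.65 on all other arrays. The part of such cells in the differences between cultures was not tested. One of the 2 blood marker rises was lost without the second basal array of either line or the second day 5 array of 14B3, and 2 of these markers fell without the second day 5 array of 9A1.

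How far the array labelled basal 9A1 replicate 1 lay towards day 5 differed between lists. On the scale from the mean of the other 3 basal arrays to the mean of the day 5 arrays, its list mean stood at 83.8% for gut regulators, 82.9% for conjugating enzymes, 78.2% for plasma proteins and 73.1% for lysosomal genes. It stood at 59.3% for the brush border, 57.1% for fatty acid oxidation and 55.1% for cytochromes P450. For mitosis, DNA replication and the G1 list it stood at 30.2%, 26.2% and 12.5%. The lists of cell division thus lay nearer to basal culture on this array than the lists of gut and liver functions. The cause was not tested.

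**Figure D4:**
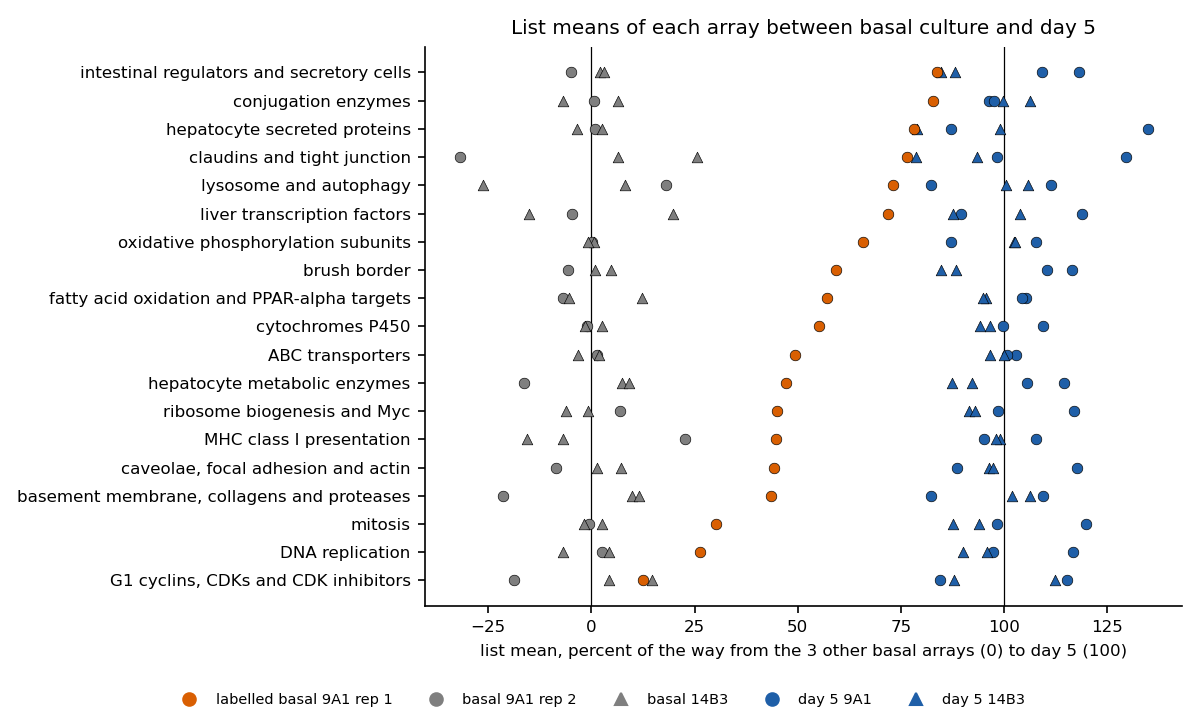
Position of each array's list mean, in percent of the way from the mean of the 3 other basal arrays to the mean of the day 5 arrays, for 19 lists whose means differed by at least 0.5, with circles for 9A1, triangles for 14B3, grey for basal culture and blue for day 5. The orange points of the array labelled basal 9A1 replicate 1 run from 12.5% for the G1 list to 83.8% for gut regulators.

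Whether 5 days changed the lines alike was asked with the interaction of line and culture. With 8 arrays limma called 2 of 15500 genes (0.0129%), and 943 had an unadjusted p under 0.05. Basal 9A1 here includes the array labelled basal 9A1 replicate 1, which lay nearer to 14B3 for 23 of the 24 line-separating genes. Where basal 9A1 replicate 2 is left out, basal 9A1 is that array alone. The count of that fit is therefore not a measure of the change in 9A1. H2-Q2, a class I gene, stood at 3.55, 3.44, 3.60 and 3.29 before and at 8.05, 8.59, 3.58 and 3.64 after. Its change was larger in 9A1 by 4.66 ± 0.27 (adjusted p = 0.0159), since it rose from under the floor in 9A1 and stayed under it in 14B3, and probe sets of class I genes can hybridise with relatives. Mylk3, a myosin light chain kinase, stood at 4.93, 4.96, 5.20 and 5.43 before and at 8.08, 8.32, 5.52 and 5.49 after, and its change was larger in 9A1 by 3.07 ± 0.18 (adjusted p = 0.0159). Without the array labelled basal 9A1 replicate 1 limma called 75 genes (0.484%), 51 with the higher change in 9A1 and 24 with the lower, and the basal level of 9A1 then rests on 1 array that is assumed to vary like the others. Without basal 9A1 replicate 2 instead it called 2118, and without day 5 9A1 replicate 2 it called 6, while without any 1 of the 14B3 arrays it called 0, with 455 to 664 genes at an unadjusted p under 0.05.

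Brush border enzymes and guanylins were among the genes that changed more in 9A1 without that array. Enpep, the aminopeptidase A of microvilli (chr3:129269177-129332749), stood at 6.39, 4.46, 4.28 and 4.25 before and at 12.75, 12.89, 5.99 and 5.94 after, a change larger by 6.67 in 9A1. The meprin subunit Mep1a stood at 6.54, 5.92, 5.68 and 5.38 before and at 10.89, 11.20, 7.33 and 7.34 after (3.33), and Heph, a ferroxidase of enterocytes, at 5.97, 3.81, 3.91 and 3.83 before and at 10.02, 10.04, 5.79 and 5.09 after (4.65). Guca2a, Guca2b and their receptor Gucy2c changed more in 9A1 by 3.43, 3.06 and 1.92. These 6 genes were higher on both day 5 9A1 arrays than on both day 5 14B3 arrays.

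Genes that changed more in 14B3 included Nepn, a small proteoglycan, at 10.58, 4.85, 4.77 and 5.24 before and at 4.95, 4.92, 9.81 and 8.96 after (-4.29). The glutathione transferase Gstt2 stood at 8.76, 4.86, 5.05 and 4.72 before and at 4.69, 5.14, 9.33 and 8.65 after (-4.05). Mndal, an interferon-inducible gene, stood at 9.27, 5.63, 7.71 and 8.10 before and at 4.48, 4.95, 11.26 and 11.62 after (-4.44). For all 3 the array labelled basal 9A1 replicate 1 lay nearer to the day 5 14B3 arrays than to the day 5 9A1 arrays, and for Nepn and Gstt2 it lay above the other basal arrays by over 3 log2 units. The chemokine Cxcl5 stood at 3.79, 9.42, 5.04 and 5.11 before and at 3.87, 3.85, 3.72 and 3.72 after, so its difference of -4.21 rests on basal 9A1 replicate 2.

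**Figure D5:**
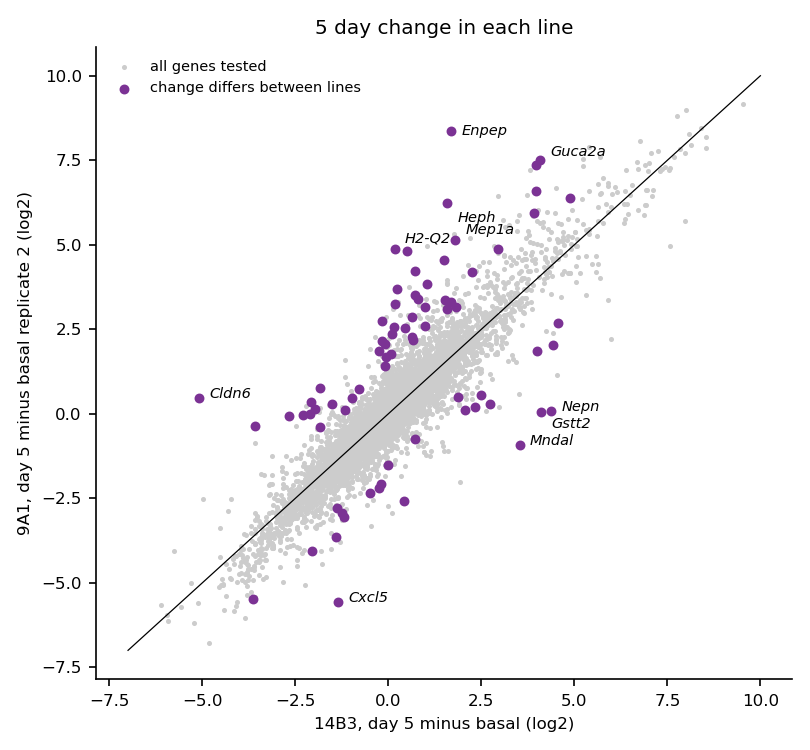
Change from basal culture to day 5 in 14B3 (horizontal) and in 9A1 over basal replicate 2 (vertical), in log2 units, for the 15500 genes tested (grey) and the 75 genes whose change differed between the lines without the array labelled basal 9A1 replicate 1 (purple), with the line of equal change. Enpep stands at 8.36 in 9A1 and 1.70 in 14B3, and Nepn at 0.09 and 4.38.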

How the data were processed

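Total RNA of 8 cultures was biotin-labelled and hybridised to Affymetrix mouse genome arrays. The authors deposited log2 levels per probe set, and the submitters' processing notes name RMA and R 2.3.1. RMA as usually run gives all arrays one distribution, so changes in total RNA are not seen. Of 45101 probe sets 34945 had 1 gene in the platform annotation, 932 several, 9160 none and 64 were controls. Only those with 1 gene were used. Each of 18193 genes was read from its brightest probe set (highest average on these 8 arrays). Genes at 5 or more on at least 2 arrays were tested.

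The analysis used R 4.3.3 and limma 3.58.1, with terms for line and culture and a trend in the variance. Replicates are biological per the labels' series design, and their numbers were not used as pairs: deviations of same-numbered arrays correlated at -0.19 in 9A1 and -0.07 in 14B3. The 30 gene lists held 968 genes, of which 910 were on the table (1 of these through another symbol) and 862 were tested. Members, lists and tests were chosen with earlier results of these data known. The naming rule takes the 10 leading rises and falls called with and without basal 9A1 replicate 1, in each list up to 4 called members with the largest difference in its main direction and 1 against, a fixed panel of 13 markers, and the genes called for the interaction. Other list members, and genes that separate the lines, were named after their values were seen. The model was tested on simulated data before use. Motifs were searched on both strands of RefSeq promoter windows. The motif results of hepatocyte genes are not reported here. Alternatives were other filters, probe set rules, normalisations, moderation, array weights, models, thresholds, each line alone, replicate blocks and leaving out each array. No array column was left unmapped.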

Additional observations from a re-analysis of the deposited data

Results flagged for a closer look

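List means were screened for single arrays far from the other 3 of the same culture, 30 lists in each culture, a rule by which chance marks about 1 in 20. In basal culture 8 lists were marked, all 8 for the array labelled basal 9A1 replicate 1. Its mean was 8.65 for plasma proteins of the hepatocyte (other basal arrays 6.53 to 6.69), 8.16 for gut regulators and secretory genes (6.54 to 6.69), 8.66 for the brush border (6.43 to 6.79), 7.92 for cytochromes P450 (6.79 to 6.87), 9.9996 for conjugating enzymes (7.88 to 8.20), 8.81 for ABC transporters (8.13 to 8.19), 12.25 for oxidative phosphorylation (11.92 to 11.93) and 9.49 for mitosis (10.5 to 10.7). At day 5 only the stellate cell and fibroblast markers were marked, at 6.11 on day 5 9A1 replicate 2 against 5.97 to 5.98 on the others. The lists share samples and are not independent of each other.

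H2-Q2 and Mylk3 were marked because their 5 day change differed between the lines by limma's interaction test, by 4.66 and 3.07 (adjusted p = 0.0159 for both). On both genes both day 5 9A1 arrays were high, and no basal array was.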

How the results depend on the processing

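None of the 144 calls of named genes reversed in any setting run, while small differences that were not called can change sign with 1 array left out, as for Pttg1 (0.09, from -0.17 to 0.52). By limma, each probe set on its own gave 5488 higher and 6146 lower, an adjusted p under 0.01 gave 1742 and 2318, a 2-fold minimum 1254 and 1513, and 9A1 alone 0 and 0, with 1393 and 1839 at an unadjusted p under 0.05. The fit of 9A1 alone includes the array labelled basal 9A1 replicate 1. Leaving out 1 array gave 2219 to 3851 higher and 2676 to 4165 lower. Without basal 9A1 replicate 2, the basal 9A1 level of the interaction is that of the array labelled basal 9A1 replicate 1 alone. For the change that differs between lines, leaving out 1 array gave 0 to 2118 genes, 75 of them without basal 9A1 replicate 1 and 6 without day 5 9A1 replicate 2, and an adjusted p under 0.01 gave 0, with 943 at an unadjusted p under 0.05. Replicate numbers did not pair the samples; with the replicate block 2552 genes were higher, 2897 lower and 0 differed between lines (695 at an unadjusted p under 0.05). A crossed replicate block in 9A1, chosen after seeing the data, gave 2899 and 3407. Of 150 named genes 144 were called, 142 of them also without basal 9A1 replicate 1 and 111 with any 1 array left out. The number that stayed called in all of the other settings was 0. In 9A1 alone all 144 calls were lost, and at an adjusted p under 0.01 46 were lost. Without detection calls, signal near the floor of 5 limits low genes.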

Other observations

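Probe sets without a single named gene were not used in any comparison above. Of 10092 such probe sets 5672 passed the same filter, of which 520 were higher and 557 lower after 5 days by limma (19% in all), and 629 and 765 without the array labelled basal 9A1 replicate 1.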
